A study of Drosophila melanogaster with 16 samples.

Results

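Chromatin accessibility at 10 genes of the TOR pathway and of amino acid sensing was read from ATAC-seq of the adult Drosophila melanogaster fat body. A peak was counted for a gene when its midpoint lay within the gene or up to 1000 bp beyond either end, and the 10 genes held 16 of the 8069 peaks in the authors' deposited table. The genes are Tor, raptor, Tsc1, gig, Rheb, slif, S6k, REPTOR, Mitf and crc, and each had at least 1 peak. ATAC-seq marks open chromatin with a transposase, so reads in a peak count how often that stretch of DNA could be cut.

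The flies were w1118 virgin females aged 25 days, reared at 25 °C and moved within 8 hours of eclosion to 25 °C or 11 °C, where they stayed for 25 days. At each temperature they received, as vapour of 10 µL every 2 days, either 99% ethanol or 39.4 mM S-methoprene, a juvenile hormone analog, in that ethanol, giving 4 groups of 4 libraries with fat body from 25 flies each. Flies were used only when their ovaries had the intended state, regressed at 11 °C with ethanol and large in the other 3 groups, so ovary state was part of the selection. The table analysed compares 25 °C with 11 °C and holds means per temperature, without values per library and with the drug unresolved. Both drug arms were made at each temperature, but fewer 25 °C than 11 °C libraries entered the means, and which ones is not stated. The parts of temperature, drug and ovary state in a difference therefore cannot be told apart here. No SD or standard error can be given.

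For every peak, the table lists mean normalised reads per temperature, the authors' fitted fold change on the log2 scale, and an FDR, the false discovery rate adjusted over all peaks. A peak is called when its FDR is under 0.05. Differences below are the log2 mean at 25 °C minus the log2 mean at 11 °C, so a negative value is more accessible in the cold. The authors' fitted fold changes are smaller, with a slope on these differences of 0.806 over all peaks and 0.664 over the 16 member peaks. A bulk peak does not separate fewer cells with open chromatin from less open chromatin in each cell. Of all peaks, 981 were called higher at 25 °C and 808 at 11 °C. Of 36 peaks at 12 of 14 fat body marker genes, 9 were called higher at 25 °C and 3 at 11 °C, among them 6 peaks of apolpp, the lipid carrier gene.

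TOR is a protein kinase that, together with raptor in the complex TORC1, drives growth and protein synthesis when nutrients are present. The small GTPase Rheb switches TORC1 on, and Tsc1 with gig, the fly's Tsc2, keeps Rheb off. In the larval fly fat body, amino acids imported by transporters such as slimfast (slif) act through TOR to set the growth of the whole animal. S6k carries the signal to the translation machinery. REPTOR and Mitf are transcription factors that TORC1 holds out of the nucleus, and crc, the fly's ATF4, is a transcription factor of the response to amino acid shortage.

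Tor, the kinase itself, and S6k, its substrate kinase, each had a single peak. Both peaks were more accessible at 11 °C, by 1.34-fold and 1.23-fold in mean reads. The peak counted for Tor covers an end of Vha68-1, however, and stops short of Tor itself. The other 14 peaks, at the remaining 8 genes, did not pass the test. By the authors' deposited table, 2 of the 16 peaks were therefore called, both higher at 11 °C, which is 12.5% of the peaks beside a background of 22.2% of all peaks called in either direction. Split by direction, the background was 10.0% of all peaks for higher at 11 °C and 12.2% for higher at 25 °C. No member peak was called higher at 25 °C by the authors' test in the deposited table, and 1 was at an unadjusted p under 0.05. Differences ranged from -0.42 to 0.40, with a median of -0.06 beside -0.02 over all peaks, and 10 of the 16 were below 0, or 62.5% beside 53.3% of all peaks. The share called was below the background in total and near it for higher at 11 °C, so these counts are not a result particular to the 10 genes.

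**Figure D1:**
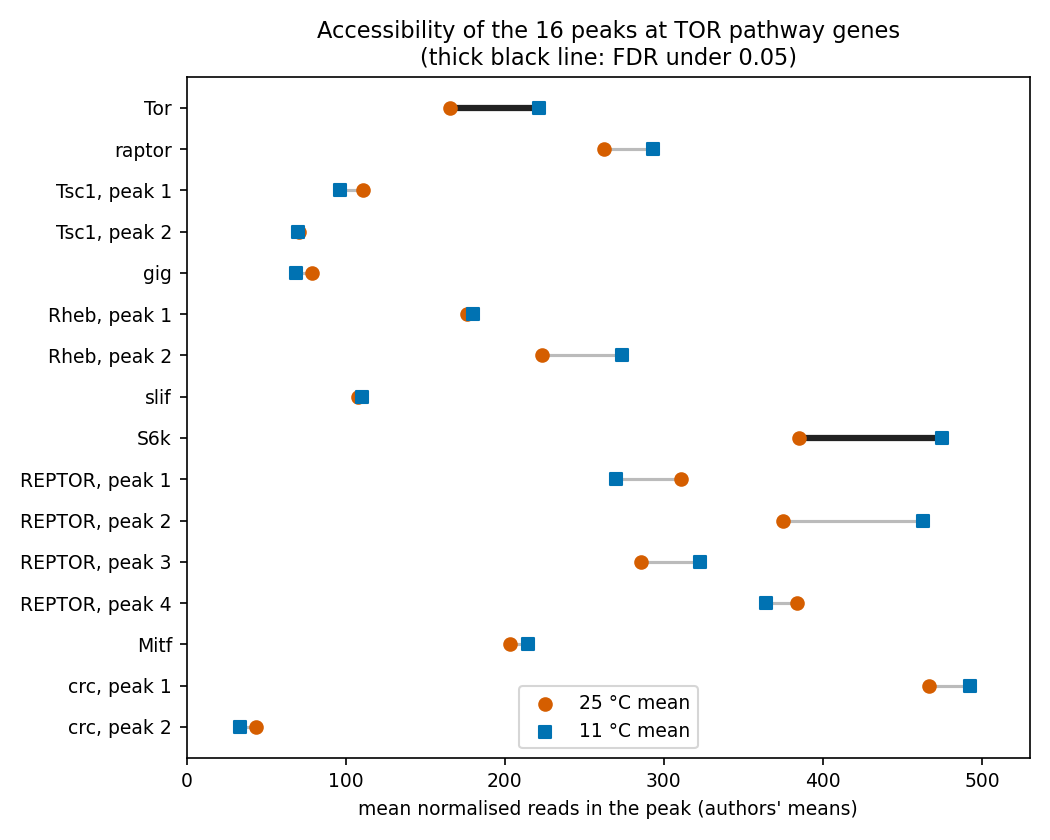
Mean normalised reads in each of the 16 peaks (horizontal axis, linear) at 25 °C (orange circles) and 11 °C (blue squares), from the authors' means, with no error bars because no value per library was analysed. The thick black lines mark the called peaks, Tor with 165 reads at 25 °C and 221 at 11 °C and S6k with 385 and 475; the peaks are numbered along each gene from its lower coordinate.

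The TORC1 kinase complex comes first. Tor, listed as mTor in the RefSeq gene table, spans 13004480 to 13013197 of chromosome arm 2L on dm6. Its peak, at 13003930 to 13004330, has its midpoint 350 bp outside the lower-coordinate end of the gene. It held 165 normalised reads at 25 °C and 221 at 11 °C in the authors' deposited table, a difference of -0.42. The authors' deposited table gives a fitted log2 fold change of -0.34 with an FDR of 0.00215. The same peak has its midpoint 23 bp outside an end of Vha68-1, which encodes a subunit of the proton pump that acidifies lysosomes. It covers that end and stops short of Tor, so by position it is nearer to Vha68-1. Which gene it serves was not tested. The other peak of Vha68-1 held 144 reads at 25 °C and 155 at 11 °C and was not called (FDR 0.694 in the authors' deposited table).

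The raptor gene, whose product brings substrates to the kinase, lies at 6082634 to 6090201 of X and had a peak at 6089966 to 6090366, 35 bp inside its upper-coordinate end. It held 262 reads at 25 °C and 293 at 11 °C, a difference of -0.16. The sign was that of Tor, but the FDR in the authors' deposited table was 0.359 and the peak was not called. It overlaps Mipp2, a phosphatase gene that covers nearly the same span, and an antisense RNA gene.

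Among the regulators above the kinase, no peak was called. Both peaks of Tsc1 had means that were higher at 25 °C or nearly equal. The peak across its lower-coordinate end (3R, 24130097 to 24130497) held 111 reads at 25 °C and 96.6 at 11 °C, a difference of 0.20 (FDR 0.300 in the authors' deposited table). The peak beyond its upper end (24134648 to 24135048), closer to Sec10, held 70.5 and 70.2 reads, with an FDR of 0.851 in the authors' deposited table. The gig peak (3L, 20129034 to 20129434), across the lower-coordinate end of the gene and within reach of no other gene, held 78.7 reads at 25 °C and 68.8 at 11 °C. Its difference of 0.19 had an FDR of 0.448 in the authors' deposited table, so neither subunit of the inhibitory complex showed a difference that passed the test.

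The 2 peaks of Rheb had unlike differences. The peak at its lower-coordinate end (3R, 5568656 to 5569056), shared with CG2931, held 176 reads at 25 °C and 180 at 11 °C, a difference of -0.03 (FDR 0.992 in the authors' deposited table). The peak 994 bp beyond the upper end (5571285 to 5571685) held 223 and 274 reads, a difference of -0.29 with an FDR of 0.179 in the authors' deposited table. It lies inside CRMP and just within the 1000 bp limit, so its place among the Rheb peaks depends on that limit.

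The transporter gene slif had a peak within the gene, 1204 bp from its lower-coordinate end (3L, 22882049 to 22882449), and no other gene is in reach. It held 107 reads at 25 °C and 110 at 11 °C, a difference of -0.04, and the FDR in the authors' deposited table was 0.961. Only a peak of Tsc1 and a peak of Rheb had smaller differences in size among the 16.

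Among the effectors, S6k had its peak across its upper-coordinate end. The gene spans 5797549 to 5810931 of 3L, and the peak at 5810684 to 5811084 also reaches into kri, the next gene. It held 385 reads at 25 °C and 475 at 11 °C, a difference of -0.30. The authors' deposited table gives a fitted log2 fold change of -0.23 with an FDR of 0.0134. S6k is among the more accessible peaks, and differences in general fell with concentration. The median over all peaks was 0.12 in the 25% of peaks with the fewest reads and -0.09 in the 25% with the most. Calls followed the same order. Of the 2018 peaks with the fewest reads, 489 were called higher at 25 °C and 158 at 11 °C. Of the 2017 peaks with the most, 78 were called higher at 25 °C and 257 at 11 °C. Relative to the median of peaks of its own concentration decile, -0.13, the S6k difference was -0.17, and that of Tor, whose decile had a median of -0.03, was -0.39.

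REPTOR had 4 peaks, more than any other of the 10 genes, along a span of 25497 bp on 3R, and its differences had both signs. The peak across its lower-coordinate end (24556977 to 24557377), near 3 U6 snRNA genes, held 311 reads at 25 °C and 270 at 11 °C, a difference of 0.20 with an FDR of 0.163 in the authors' deposited table. Within the gene, a peak 8707 bp from that end (24565875 to 24566275) held 375 and 463 reads, a difference of -0.30, and its FDR of 0.0584 in the authors' deposited table was just above the threshold. The next peak, 746 bp further on, held 285 reads at 25 °C and 323 at 11 °C, a difference of -0.18 with an FDR of 0.300 in the authors' deposited table. The last, 15346 bp from the lower end, held 384 and 364 reads, a difference of 0.08 with an FDR of 0.705 in the authors' deposited table. The peak at the gene end and the pair within the gene thus had differences of opposite sign, none of them called.

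Mitf, which lies on the small chromosome 4 at 1198852 to 1224467, had a single peak 492 bp inside its lower-coordinate end (1199144 to 1199544). It held 203 reads at 25 °C and 215 at 11 °C, a difference of -0.08 with an FDR of 0.907 in the authors' deposited table. No other gene is in reach of it, and the gene extends over 25616 bp in which the table lists no further peak.

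The crc gene (2L, 21310866 to 21319527) held the most and the least accessible of the 16 peaks. The peak 3488 bp from its lower-coordinate end (21314154 to 21314554) had 467 reads at 25 °C and 492 at 11 °C, a difference of -0.08 with an FDR of 0.752 in the authors' deposited table. The peak 573 bp beyond its upper end (21319900 to 21320300) had 43.9 and 33.3 reads. Its difference of 0.40 was the largest towards 25 °C among the 16, and it was not called (FDR 0.0744 in the authors' deposited table). Both peaks are also in reach of CG46314, a gene that overlaps crc.

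**Figure D2:**
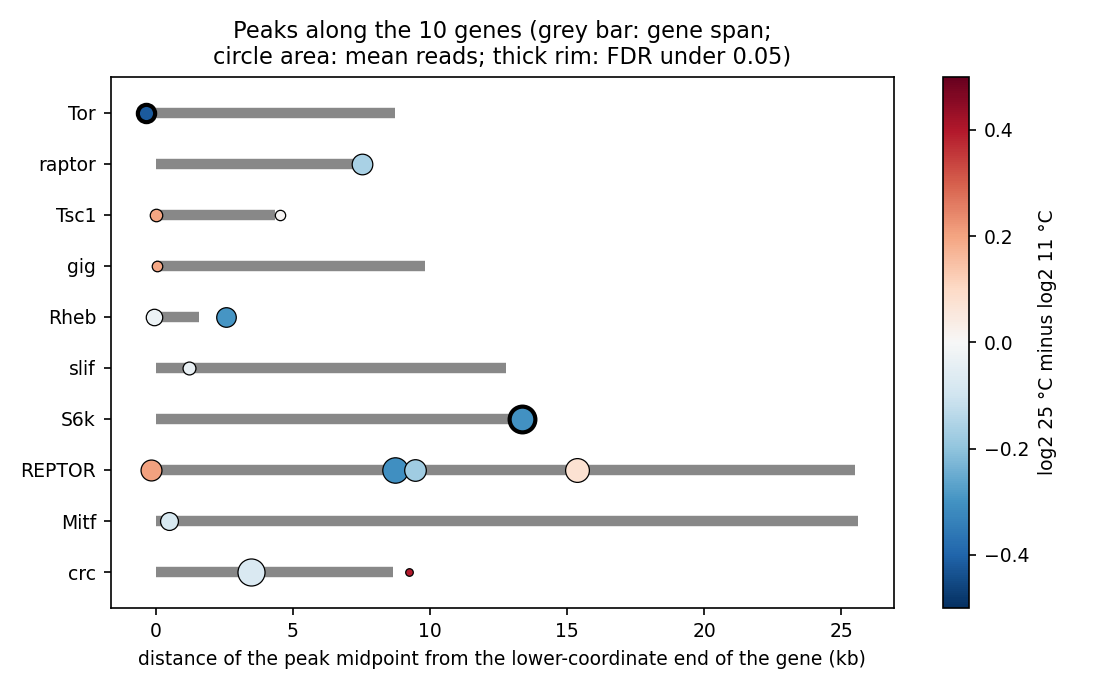
Position of each peak midpoint along its gene, in kb from the lower-coordinate end of the gene (horizontal axis); grey bars are gene spans, circle area grows with mean reads, and colour is the log2 mean at 25 °C minus that at 11 °C. The called peaks, with thick rims, lie at a gene end in Tor (350 bp outside) and S6k (47 bp inside), while REPTOR carries peaks of both signs along its length.

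Ordered by the mean difference of their peaks, the genes ran from gig (0.19), crc (0.16) and Tsc1 (0.10) through slif (-0.04), REPTOR (-0.05) and Mitf (-0.08) to raptor (-0.16), Rheb (-0.16), S6k (-0.30) and Tor (-0.42). In the order, gig and Tsc1, the inhibitors among the members, had means above 0, and Tor, raptor, Rheb and S6k, which act positively in the pathway, had means below 0. This grouping was made after the values were seen and describes 10 values: without values per library, no difference between neighbours in the order could be tested, and only the peaks of Tor and S6k passed the test on their own. Centred on the median of the concentration decile, gig and Tsc1 had 0.13 and 0.06, with 0.16 and -0.05 at the 2 peaks of Tsc1. Tor, raptor, Rheb and S6k then had -0.39, -0.10, -0.12 and -0.17. The centred values come from the same peaks, so they are no separate support for the grouping. The Tor peak is nearer to Vha68-1, and Rheb had only -0.03 without its peak inside CRMP. In 6 genes every peak had a difference below 0, in 2 every peak had a difference above 0, and REPTOR and crc had both. The sign of the mean was not stable for REPTOR, which had 0.05 when centred on the median of the concentration decile, for crc, which had -0.08 without its peak beyond the upper end, or for slif, which had 0.09 with a flank of 2000 bp.

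How small a difference this table could call was read from peaks of like concentration, within 0.25 log2 units. Of the 1557 peaks as accessible as that of Tor, 16.6% were called, and the smallest called difference towards 11 °C was 0.29 in size. For S6k it was 0.26, among 566 peaks of which 15.5% were called. In 12 of the 16 member peaks the difference was below the smallest size called in its direction at like concentration, and a difference of that size that was not called is not shown to be absent. The 2 uncalled peaks above that size were the distal peak of Rheb and the second peak of REPTOR.

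**Figure D3:**
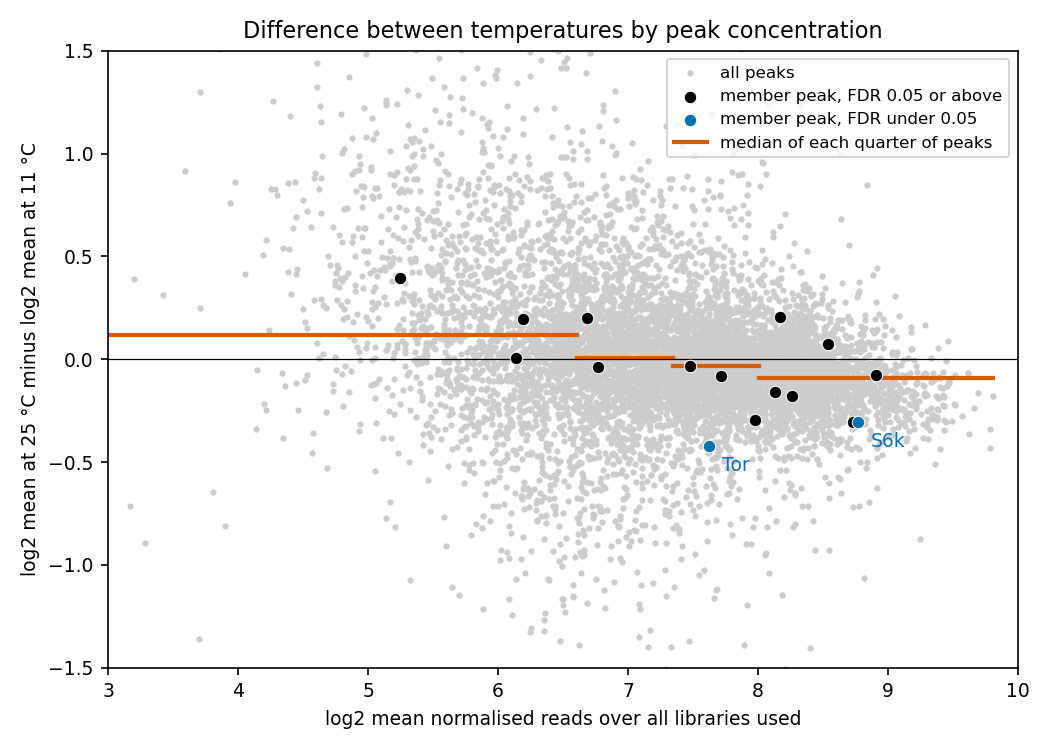
Log2 mean at 25 °C minus log2 mean at 11 °C (vertical axis) against the log2 mean over all libraries used (horizontal axis) for all peaks (grey; 134 lie outside the plotted range), with the 14 uncalled member peaks in black and the called ones, Tor and S6k, in blue. Orange lines are medians of all peaks in 4 bins of concentration, and step down from 0.12 to -0.09 as reads increase.

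The choice of members did not use read numbers. Their median was 230 reads beside 163 over all peaks, and 11 of the 16 were above the overall median, with 7 among the most accessible 25% of all peaks. A midpoint within 500 bp of an end of any gene was found for 12 of the 16, in part because the choice itself used nearness to a gene. Of all peaks at such ends 15.3% were called, against 33.8% of peaks elsewhere, and both called members lie at gene ends. In all, 10 of the 16 peaks were also in reach of another protein-coding gene, which limits how far any of them can be tied to a TOR gene.

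The nearest peaks on each side that are not members numbered 20. Of these, 3 were called higher at 25 °C and 2 at 11 °C, a share close to the 22.2% of all peaks, so it is no result about these surroundings. Beside S6k, a peak in vn, a ligand gene of the EGF receptor, 8713 bp away, had a difference of 1.51 (FDR 1.06e-05 in the authors' deposited table), opposite in sign to the S6k peak. Beside Rheb, a peak further inside CRMP, 7171 bp from the distal Rheb peak, had -1.21 (FDR 1.73e-09 in the authors' deposited table). Below REPTOR, a peak in Esyt2, 8152 bp from the end peak, had 0.90 (FDR 2.78e-09 in the authors' deposited table). Neither neighbour of the Tor peak was called, with differences of -0.11 and 0.37 (FDR 0.694 and 0.279 in the authors' deposited table).

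The wider pathway was described from 8 lists with 178 peaks at 104 genes, the 10 members included. In all, 10 of these peaks were called higher at 25 °C and 16 at 11 °C, together 14.6% beside the 22.2% of all peaks. Their median difference was -0.05 beside -0.02. The share called was 25.0% for TOR complexes, 21.7% for upstream regulators and 0.0% for GATOR, Rag and Ragulator. It was 23.1% for transporters, 12.1% for effectors, 21.1% for the shortage response, 16.7% for autophagy and 8.11% for V-ATPase and lysosome. By direction, 12.2% of all peaks were called higher at 25 °C and 10.0% at 11 °C, and no list was tested against these shares. The shares by direction change with concentration, and the lists were not matched for it.

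Of the 8 peaks at subunits of both TOR complexes, 1 was called each way, and the median difference was -0.05. The peak higher at 11 °C is that of Tor. The other lies 953 bp outside Sin1, which encodes a subunit of TORC2, the second TOR complex. It held 40.9 reads at 25 °C and 23.7 at 11 °C, a difference of 0.79 (FDR 0.00193 in the authors' deposited table). It is among the 25% of all peaks with the fewest reads. A second Sin1 peak, 149 bp outside the gene, held 93.2 and 90.4 reads, a difference of 0.04, and was not called (FDR 0.776 by the authors' test).

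Around Tsc1, gig and Rheb, 23 peaks at 10 genes of upstream regulation had 2 calls towards 25 °C and 3 towards 11 °C. Accessibility was higher at 11 °C at 2 peaks of Sesn, the sestrin gene, whose product restrains TORC1, with differences of -0.44 and -0.41 (FDR 0.000568 and 0.0224 in the authors' deposited table). For both of these peaks the nearest protein-coding gene is CG46429. The other Sesn peaks had fitted log2 fold changes of -0.07 and -0.14 and were not called (FDR 0.554 and 0.105 by the authors' test). Of 4 peaks of hppy, which encodes a kinase of the MAP4K family, 1 within the gene had -0.39 (FDR 0.00247 in the authors' deposited table). The other hppy peaks had fitted log2 fold changes of 0.02, 0.05 and 0.05 and were not called (FDR 0.857, 0.703 and 0.672 by the authors' test). Towards 25 °C, Tctp had 0.50 at 1 of its 2 peaks, also in reach of ZnT86D, and 0.07 at the other (FDR 4.47e-05 and 0.702 in the authors' deposited table). The gene chrb, a stress-induced inhibitor of TOR signalling, had 0.37 (FDR 0.00495 in the authors' deposited table). Genes of TORC1 inhibitors thus stood on both sides.

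The machinery that reports amino acids to TORC1 had the smallest range of differences of the 8 lists. At 14 genes of the list for the GATOR complexes, the Rag GTPases and the Ragulator, which also holds FLCN, none of 15 peaks was called. None reached an unadjusted p under 0.05 by the authors' test. Nprl3, Iml1 and Samtor, also on the list, had no peak, so nothing can be said of them. The largest difference in size was -0.23, at Lamtor3, whose FDR of 0.183 was the smallest of the list in the authors' deposited table. RagA-B held 187 reads at 25 °C and 187 at 11 °C, and RagC-D 152 and 151.

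Amino acid transporter genes had 13 peaks, of which 1 was called higher at 25 °C and 2 at 11 °C. The peak near JhI-21, a transporter of neutral amino acids, held 150 reads at 25 °C and 106 at 11 °C, a difference of 0.50 (FDR 0.00124 in the authors' deposited table), and is also in reach of RpL7-like. Those of CG7255 and gb had -0.44 and -0.36 (FDR 0.00194 and 0.00355 in the authors' deposited table). The slif peak lay between them at -0.04.

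Among 33 peaks at 15 genes that act below TORC1, none was called higher at 25 °C by the authors' test (2 at an unadjusted p under 0.05) and 4 were called higher at 11 °C, and the median was -0.10. The largest was 1 of the 3 peaks of larp, an RNA-binding protein gene, with 215 reads at 25 °C and 379 at 11 °C. Its difference was -0.82 (FDR 1.57e-11 in the authors' deposited table). The other larp peaks had fitted log2 fold changes of -0.06 and -0.07 and were not called (FDR 0.608 and 0.499 in the authors' deposited table). Next came 1 of the 4 peaks of the growth regulator Myc with -0.32, then unk with -0.31 and S6k with -0.30, the first 2 with FDR of 0.0142 and 0.0212 in the authors' deposited table. Myc had differences of 0.25, 0.30 and 0.17 towards 25 °C at its other 3 peaks, none called (FDR 0.150, 0.0535 and 0.508 in the authors' deposited table). Thor, the translational repressor that TORC1 inactivates, held 381 and 401 reads and was not called (FDR 0.671 in the authors' deposited table).

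At genes of the amino acid shortage response, 4 of 19 peaks were called higher at 25 °C, none of them at crc, and none was called higher at 11 °C by the authors' test (2 at an unadjusted p under 0.05). A peak within Atf3, a bZIP factor gene, held 82.2 reads at 25 °C and 40.8 at 11 °C, a difference of 1.01 (FDR 1.86e-07 in the authors' deposited table), and another Atf3 peak had 0.52 (FDR 0.0133 in the authors' deposited table). The uncalled Atf3 peaks leaned the other way, with -0.28 and -0.21 (FDR 0.118 and 0.391 by the authors' test). Both called Atf3 peaks are among the 25% of all peaks with the fewest reads. Of those 2018 peaks, 489 were called higher at 25 °C and 158 at 11 °C. For the pseudokinase gene trbl, 1 of 4 peaks was called, with a difference of 0.54 (FDR 0.0078 by the authors' test). The remaining trbl peaks were below 0 and uncalled: -0.11, -0.15 and -0.27, with FDR of 0.595, 0.457 and 0.0545 by that test. The list's median difference was -0.01, with peaks on both sides of 0: the median size of its differences, whatever their sign, was 0.21, beside 0.17 over all peaks.

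Autophagy, which TORC1 restrains, had 5 of 36 peaks called higher at 11 °C and 1 higher at 25 °C. Towards 11 °C, 1 peak each within Atg16, Atg17 and Atg18b had differences of -0.60, -0.46 and -0.44 (FDR 0.00676, 0.00351 and 0.000495 in the authors' deposited table). That of Atg18b is also in reach of CG8679. The other peaks of these genes were not called. Their fitted log2 fold changes were -0.04 for Atg16, 0.08 for Atg17, and 0.04 and -0.03 for Atg18b (FDR 0.721, 0.466, 0.755 and 0.767 by the authors' test). Atg7, the activating enzyme of the autophagy conjugation systems, had 0.63 at a peak shared with CG5335 (FDR 4.83e-07 in the authors' deposited table). The other Atg7 peak had a fitted log2 fold change of 0.04 and was not called (FDR 0.731 by the authors' test). Of 37 peaks at genes of the V-ATPase and the lysosome, which Mitf controls in the fly, 2 were called higher at 11 °C. Among them is the peak at an end of Vha68-1 that was counted for Tor. The lysosomal transporter gene spin had a call each way among its 6 peaks, -0.42 and 0.38 (FDR 0.0189 and 0.00924 in the authors' deposited table).

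**Figure D4:**
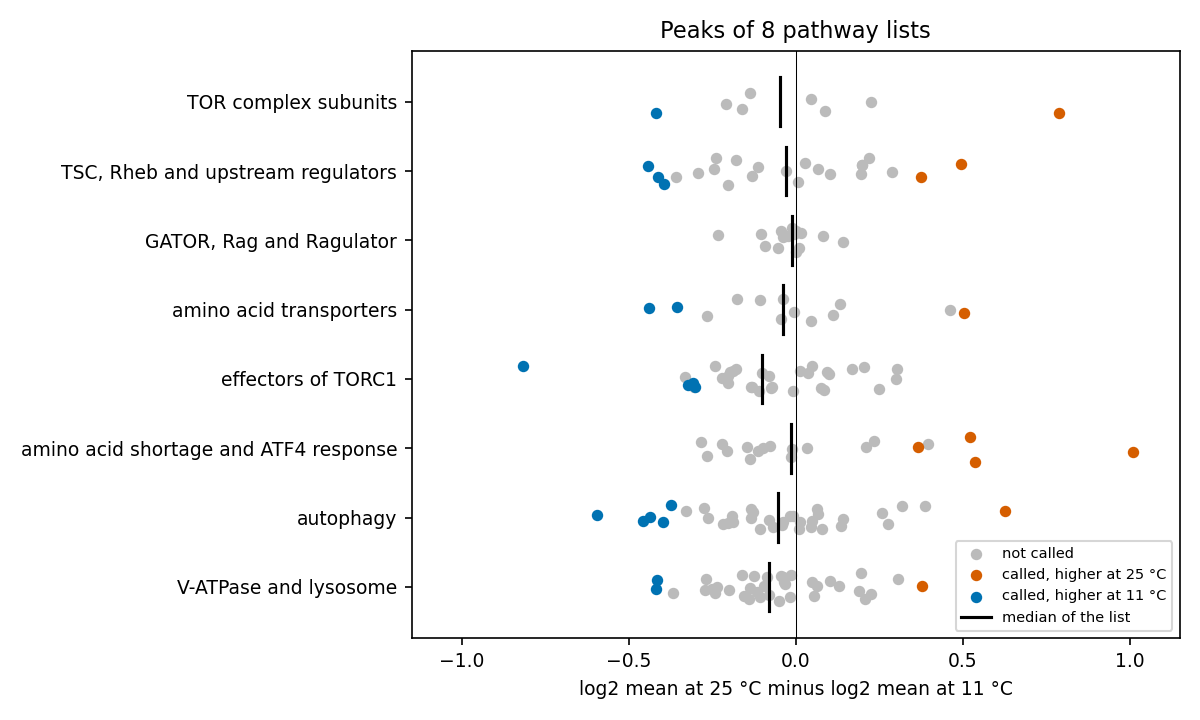
Log2 mean at 25 °C minus log2 mean at 11 °C (horizontal axis) for every peak of 8 pathway lists (rows), with called peaks in orange (higher at 25 °C) or blue (higher at 11 °C), uncalled ones in grey and the list median as a black bar. List medians lie between -0.10 and -0.01, and no peak of the GATOR, Rag and Ragulator list is called.

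Peaks at markers of other cell types were read in the same way. Muscle markers had a peak at 4 of 11 genes, with 2 of 10 peaks called higher at 25 °C, among them that of Mhc with 52.6 reads at 25 °C and 22.0 at 11 °C; their summed reads were 1264 and 1268. Of 16 peaks at oenocyte markers 7 were called higher at 25 °C and none at 11 °C, where none reached an unadjusted p under 0.05 by the authors' test either, with summed reads of 3585 and 3390. Neuron and hemocyte markers had 1 call each way, of 9 and 5 peaks, and the hemocyte genes Hml, Pxn and eater had no peak in the table. None of 7 peaks at ovary markers was called, and 1 had an unadjusted p under 0.05 by the authors' test, higher at 11 °C. The part of these cells in the values at Tor and S6k was not tested.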

How the data were processed

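ATAC-seq of fat body was made in 16 libraries. Of tools, the submitters' processing notes name bedtools, Bowtie2, cutadapt, DiffBind, FastQC, MACS2, Picard, SAMtools and Trim Galore, and dm6 as the build; versions, duplicate handling, transposase shift and scaling are not given in the sources used here, and scaling could shift all differences together. The deposited table holds, per the file headers, log2 mean concentrations (overall and per temperature), the authors' log2 fold change, and the authors' p-value with its FDR. Depth per library is unknown. The overall mean weighs 25 °C at 0.429, so fewer 25 °C than 11 °C libraries entered, and which ones is not stated.

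No model was refitted. With Python 3.11.15 and pandas 2.3.3, peaks were assigned by midpoint to spans of the RefSeq Release 6 gene table, used without strand or exons, and the assignment was checked on simulated data. Reads are 2 to the power of the log2 concentration. Tor was matched to mTor by locus tag; of 175 list entries 9 were matched through another symbol and 3 to no gene. Members and lists were chosen with earlier results of these data known. Of each list, called genes were named, up to the 3 most changed each way. Thor, RagA-B, RagC-D, Lamtor3 and the peaks around members were named after their values were seen. FLCN and some genes without a peak were named to show what a list covers. Alternatives were other flanks, overlap, nearest gene, concentration and FDR limits, fitted fold changes and centring. Promoter motifs were planned and not analysed here.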

Additional observations from a re-analysis of the deposited data

How the results depend on the processing

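The median difference of the 16 peaks, -0.0578, moved by less than 0.1 and stayed below 0 under every alternative run for it, but was -0.0117 with a 2000 bp flank, -0.0382 with any overlap and -0.0132 with fitted fold changes. The count of 2 member peaks higher at 11 °C became 1 without a flank, with the nearest protein-coding gene only (both times Tor had no peak left) and at an FDR under 0.01, and 4 with a 1.2-fold difference and no test, an alternative chosen after seeing the data. The count of 0 higher at 25 °C became 1 at an FDR under 0.1 and, chosen after seeing the data, at an unadjusted p under 0.05 and at 1.2-fold. The mean of Tor became -0.0236 with a 2000 bp flank, which adds a peak nearer to Ube4B. That of crc became -0.0774 without a flank, with 500 bp, with the nearest gene only and without the 25% of all peaks with the lowest concentration, each of which drops its peak beyond the upper end. That of Rheb became -0.0306 with 500 bp and with the nearest gene only, that of slif 0.091 with 2000 bp or any overlap, that of gig 0.0895 with the fitted fold change, and that of S6k -0.1736 centred on its concentration decile. The mean of REPTOR turned from -0.0511 to 0.0469 with that centring and was -0.1359 without a flank, and that of Tsc1 went from 0.1031 to 0.1991 with the nearest gene only and without the low-concentration peaks. With fitted fold changes, the means of raptor, Rheb, slif, REPTOR and Mitf also shrank by more than 1.5 times without changing sign. Without a flank Tor, Tsc1 and Rheb had no peak, and without the low-concentration peaks gig had none.

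In the lists, counts moved by more than 1.5 times as follows, and the cause was not tested. TOR complexes went to 0 towards 25 °C without a flank, with 500 bp and without the low-concentration peaks, and to 0 towards 11 °C without a flank and with the nearest gene only. Upstream regulators went from 3 towards 11 °C to 1 with the nearest gene only and 5 at an FDR under 0.1. GATOR, Rag and Ragulator went to 1 each way with 2000 bp and 1 towards 11 °C with any overlap. Transporters went to 0 towards 25 °C without a flank and with the nearest gene only. Effectors went to 1 towards 25 °C with 2000 bp and at an FDR under 0.1, and to 1 towards 11 °C at an FDR under 0.01. The shortage response went from 4 towards 25 °C to 2 without the low-concentration peaks and at an FDR under 0.01, and to 1 towards 11 °C with 2000 bp and at an FDR under 0.1. Autophagy went from 5 towards 11 °C to 3 without a flank and with the nearest gene only, and towards 25 °C to 0 with the nearest gene only and 2 at an FDR under 0.1. V-ATPase and lysosome went to 1 towards 11 °C without a flank and at an FDR under 0.01, to 5 at an FDR under 0.1, and to 2 towards 25 °C with 2000 bp and at an FDR under 0.1. All lists together went from 16 towards 11 °C to 10 at an FDR under 0.01 and 26 at an FDR under 0.1.

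No paired analysis was possible because single libraries have no values in the table, and leaving out replicates was not run for the same reason.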
